A study of Mus musculus with 12 samples.

Results

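The genes of the G2/M transition and of mitosis were followed in basal cells of mouse tail epidermis during wound repair. The set was a fixed list of 45 gene symbols that covered Cdk1 and its cyclins, the mitotic kinases, the spindle assembly checkpoint, the anaphase-promoting complex, the kinetochore, the spindle and cytokinesis, with members named by symbol and not by a threshold on measured values. Of these, 44 were paired with a probe set that matched 1 gene only, and Nuf2, a kinetochore subunit, was not analysed here. They stood among 17097 genes measured, and 26 of them had more than 1 probe set, of which the one with the highest mean over all arrays was used. CD1 mice received a punch wound of 3 mm in the tail skin, and cells were taken 4 (D4) and 7 (D7) days later. A punch of 4 mm was used to enrich for the leading edge (LE), the front of migrating cells next to the wound. A punch of 6 mm enriched for the proliferative hub, the ring of dividing cells behind it. At both days the study found no uptake of BrdU, a label of DNA synthesis, in cells at the LE. To keep out proliferative cells, it later sorted α5 integrin positive LE cells for other arrays. LE here means the cells of the 4 mm punch, which can include dividing cells. Control cells came from tail skin far from the wound of the same day. In each sample, tissue of 5 mice was pooled and 300 living basal cells, positive for α6 integrin and negative for CD34, were sorted, so the gate held interfollicular and infundibular cells and left out the hair follicle bulge. Each of the 6 groups, made of LE, proliferative hub and control at both days, had 2 arrays, 12 in all, and no group carried a transgene or a deletion. By the labels the 2 arrays are biological replicates, whereas the methods describe technically independent samples, so p-values measure only the spread between these arrays, which may be technical. The age of the mice behind the arrays was not given in the sources used here.

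Cells enter mitosis when Cdk1, bound to an A- or B-type cyclin, is released from inhibitory phosphorylation, and they leave it when the anaphase-promoting complex marks these cyclins and securin for destruction. Most genes of the set are switched on together late in the cell cycle, through promoter elements read by the MuvB complexes with B-Myb and FoxM1 and by NF-Y, so their messenger RNAs are scarce in resting cells and in cells early in the cycle. In the epidermis, divisions take place in the basal layer, where they replace cells that leave for the upper layers and supply cells to a wound.

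All values are log2 intensities after robust multi-array averaging, and a difference of 1 is a 2-fold change. D4 and D7 arrays lay on different scales, with array medians of 5.40 to 5.47 at D4 and 4.25 to 4.28 at D7, so levels were compared within a day. Of 9 genes of basal keratinocytes, 8, Krt14 and Itga6 among them, lay between 9.83 and 12.72 on every array, and Cd34, the bulge antigen used to gate cells out, between 3.08 and 4.94. The remaining basal gene, the keratin Krt15, read 7.26 and 8.31 in the LE, 9.13 and 10.25 in the proliferative hub and 10.01 and 10.52 in the control at D4, and 7.67 and 8.09, 9.15 and 9.19, and 9.82 and 9.69 at D7, so the LE was the lowest group at both days.

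The control arrays stood apart for these genes. Of the 6 arrays at D4, control replicate 1 held the lowest value of 43 of the 44 genes, whereas it held the lowest value of 17.7% of all genes. Control replicate 2 at D4 exceeded replicate 1 in 43 of 44 genes, with a median difference of 0.99 that only 0.784% of all genes surpassed. The gap was widest for Nusap1, a spindle microtubule protein, at 2.07, and the 1 gene with the opposite sign was Cdc25c, a Cdk1-activating phosphatase, at -0.05. At D7 the controls differed as well, and replicate 1 exceeded replicate 2 in 44 of 44 genes by a median of 0.80, a difference that 0.76% of all genes surpassed. Control replicate 1 at D7 was the highest of the 6 arrays for 25 genes, and control replicate 2 the lowest for 31. Median differences between replicates of a wound group, replicate 1 minus replicate 2, were smaller, at 0.01 and 0.07 for the LE and the proliferative hub at D4 and -0.29 and 0.19 at D7. At D7 most genes still moved together, with LE replicate 2 higher in 40 of 44 genes and proliferative hub replicate 1 in 37. The medians over all genes there were 0.01 and -0.03. At D4 replicate 1 was higher in 23 genes in the LE and in 24 in the proliferative hub.

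**Figure D1:**
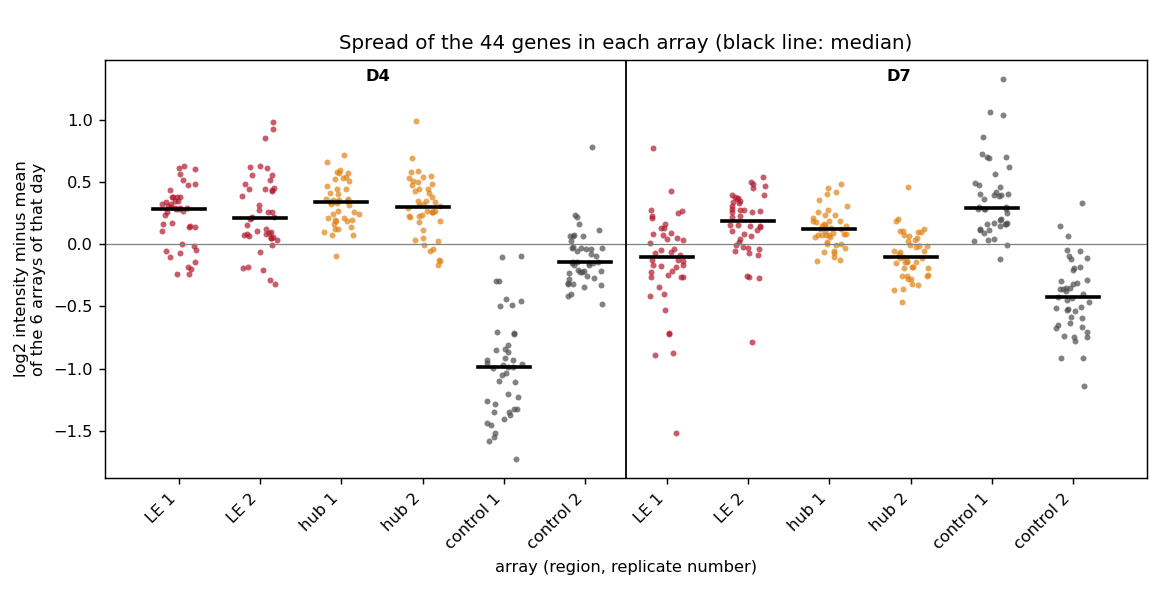
Level of the 44 G2/M and mitosis genes on each of the 12 arrays, as log2 difference of a gene from its mean over the 6 arrays of the same day. Each dot is 1 gene and the bar is the median of the array: control replicate 1 lay at -0.99 and control replicate 2 at -0.15 at D4, against 0.29 and -0.43 at D7.

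Other genes also differed between the paired control arrays. At D4 the mean of 5 melanocyte genes was 7.11 in control replicate 1 and 5.37 in replicate 2, and Tyrp1, a melanin enzyme, read 8.48 and 4.51. In the proliferative hub at D4 the same 5 genes had means of 5.38 and 8.39, where the mitotic genes had the median gap of 0.07 given above. The mean of 5 endothelial genes was 6.52 and 5.17 in the D4 controls, and that of 4 genes of the infundibulum and isthmus was 9.16 and 8.43. In the latter 4 genes, replicate 1 minus replicate 2 had a median of only 0.16 and ran from 0.06 to 2.54. At D7 the mean of 9 myeloid and Langerhans cell genes was 4.39 and 3.77 in the controls, with 5 of the 9 higher in replicate 1 and a median difference of 0.01. The class II genes H2-Ab1, at 7.78 and 3.59, and Cd74, at 5.87 and 4.30, differed, whereas the Langerhans cell marker Cd207 read 3.46 and 3.48. For 3 sebocyte genes the D7 control means were 6.88 and 8.06. The mean of 9 basal keratinocyte genes was 11.76 and 11.83 in the D4 controls and 11.03 and 10.98 in the D7 controls. The part of these differences in the results was not tested.

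Promoters of the set were searched for the motifs by which the programme is known to be regulated. The 6 genes with the smallest adjusted p in both wound regions averaged against control at D4 that had a promoter entry are shown, because the D4 difference described next was clearest in them. Each sequence runs from 250 bases before the transcription start to 25 bases from the start on, as given by RefSeq for GRCm38.p6. Capitals mark the letters CCAAT, the NF-Y motif, and TTTGAA or TTTAAA, the core of the cell cycle genes homology region read by MuvB, on either strand (read on the other strand, ATTGG for the former and TTCAAA or TTTAAA for the latter).
Cdc20: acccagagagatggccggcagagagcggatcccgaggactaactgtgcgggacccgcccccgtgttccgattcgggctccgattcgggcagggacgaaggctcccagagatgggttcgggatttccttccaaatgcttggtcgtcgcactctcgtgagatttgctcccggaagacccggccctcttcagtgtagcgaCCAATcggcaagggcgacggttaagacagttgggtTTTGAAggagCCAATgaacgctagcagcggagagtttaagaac
Cenpa: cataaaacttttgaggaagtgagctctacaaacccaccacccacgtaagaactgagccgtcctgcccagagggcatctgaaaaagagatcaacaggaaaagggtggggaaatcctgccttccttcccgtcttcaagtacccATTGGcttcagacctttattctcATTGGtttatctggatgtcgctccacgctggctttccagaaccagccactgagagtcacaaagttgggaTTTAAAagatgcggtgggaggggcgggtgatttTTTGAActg
Birc5: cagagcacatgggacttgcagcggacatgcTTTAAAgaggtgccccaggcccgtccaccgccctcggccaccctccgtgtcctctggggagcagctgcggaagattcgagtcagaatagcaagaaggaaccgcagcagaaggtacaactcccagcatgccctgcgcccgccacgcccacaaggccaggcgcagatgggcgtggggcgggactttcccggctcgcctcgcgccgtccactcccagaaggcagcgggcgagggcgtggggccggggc
Cdca8: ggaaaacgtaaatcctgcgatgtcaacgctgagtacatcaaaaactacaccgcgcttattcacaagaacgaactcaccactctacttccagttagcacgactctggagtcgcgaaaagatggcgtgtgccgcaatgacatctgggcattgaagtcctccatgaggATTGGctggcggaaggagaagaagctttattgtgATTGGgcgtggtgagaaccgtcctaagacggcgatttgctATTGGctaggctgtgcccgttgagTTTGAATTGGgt
Ccnb2: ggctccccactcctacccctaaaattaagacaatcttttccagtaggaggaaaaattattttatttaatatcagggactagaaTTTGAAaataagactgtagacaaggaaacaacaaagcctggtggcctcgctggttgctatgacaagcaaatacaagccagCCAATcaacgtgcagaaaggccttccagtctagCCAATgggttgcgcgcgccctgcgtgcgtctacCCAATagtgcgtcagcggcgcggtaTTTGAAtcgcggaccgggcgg
Pttg1: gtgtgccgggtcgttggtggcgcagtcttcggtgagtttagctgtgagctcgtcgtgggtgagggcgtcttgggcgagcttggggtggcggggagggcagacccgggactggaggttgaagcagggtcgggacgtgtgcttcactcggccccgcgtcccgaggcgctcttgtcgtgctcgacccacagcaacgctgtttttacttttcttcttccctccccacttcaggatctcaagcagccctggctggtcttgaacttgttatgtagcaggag
These are the promoters of Cdc20 (chr4:118437319-118437593, minus strand), Cenpa (chr5:30666636-30666910, plus strand), Birc5 (chr11:117848987-117849261, plus strand), Cdca8 (chr4:124936893-124937167, minus strand), Ccnb2 (chr9:70421530-70421804, minus strand) and Pttg1 (chr11:43425957-43426231, minus strand). In Cdca8 the capital run TTTGAATTGG joins a TTTGAA and an overlapping CCAAT read on the other strand. Ccnb2 had 3 copies of CCAAT and 2 of TTTGAA in the window shown, Birc5 only TTTAAA, and Pttg1 neither motif.

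Among the 44 genes, 36 had a promoter entry, and the 8 without one were Incenp, Aurkb, Cdca2, Dlgap5, Kif20a, Tpx2, Cdc25c and Ccna2. In the 250 bases before the start, TTTGAA or TTTAAA occurred in 18 of 36 promoters (50%), against 22.8% of 13605 promoters of all genes measured. CCAAT occurred in 29 of 36 (80.6%), against 39.6%, and more than 1 CCAAT in 19 (52.8%), against 13.4%. Both motifs occurred in 16 (44.4%), against 8.48%. When the entry was read in full, with 50 bases from the start on, a choice made after seeing the data, 30 of 36 promoters held TTTGAA or TTTAAA (83.3%, against 24.8%), and 26 held both motifs (72.2%, against 9.97%). These are matches of letters only, and binding was not measured.

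At D4 the mitotic genes were higher in wound epidermis than in control epidermis. Of the 44 genes, 43 lay above control in the LE, against 56.4% of all genes, and 44 in the proliferative hub, against 51.5%. The median difference was 0.81 in the LE and 0.90 in the proliferative hub, where the medians over all genes were 0.03 and 0.01. In limma with Benjamini-Hochberg (BH) adjustment over all genes, 10 genes passed as higher in the LE (8.3% of all genes) and 0 as lower (5.83%). In the proliferative hub 0 passed as higher (0.222%) or lower (0.105%). With an unadjusted p below 0.05 in limma, 23 were higher in the LE (15.1%) and 33 in the proliferative hub (6.9%). The adjustment also depends on how many other genes differ in a comparison. A gene that passed in the LE only therefore need not differ more from control there than in the proliferative hub. In the average of both wound regions against control, 11 passed as higher (5.18%) and 0 as lower (3.48%). These calls depended on single arrays and were not kept without control replicate 1 at D4. Without that array the median difference was 0.36 in the LE, 0.41 in the proliferative hub and 0.41 in the average. Without control replicate 2 it was 1.18, 1.41 and 1.24. Without LE replicate 1 or 2 of D4 the LE had 2 and 1 calls and the average 5 and 4, without proliferative hub replicate 1 or 2 the average had 3 and 4, without either control array of D7 both had 16, and without either proliferative hub array of D7 the LE had 6. Each pool of cells was measured in bulk, so more cells in mitosis and more RNA per cell cannot be told apart.

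The median difference from control replicate 1 was 1.18 in the LE and 1.41 in the proliferative hub. From control replicate 2 it was 0.36 and 0.41. The size of the difference thus depended on the control array, while the median was above 0 against either. Both LE arrays lay above both control arrays for 35 of the 44 genes (29.2% of all genes), and both arrays of the proliferative hub for 39 (21.2%). All 4 wound arrays lay above both controls for 31 genes (14.3%). The study took genes with a change of more than 2-fold in each replicate. Read here as each array against the control array of the same number, which the methods do not state, this rule left 4 genes higher in the LE (2.26%), namely Bub1, Cdca8, Cenpa and Cenpe, and 0 in the proliferative hub (0.357%). On group means it gave 15 in each region, and with every wound array against every control array 0 in the LE. The share over all genes was not taken for these 2 forms or for the fits without 1 array. Whether those counts are particular to the set is therefore not known.

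**Figure D2:**
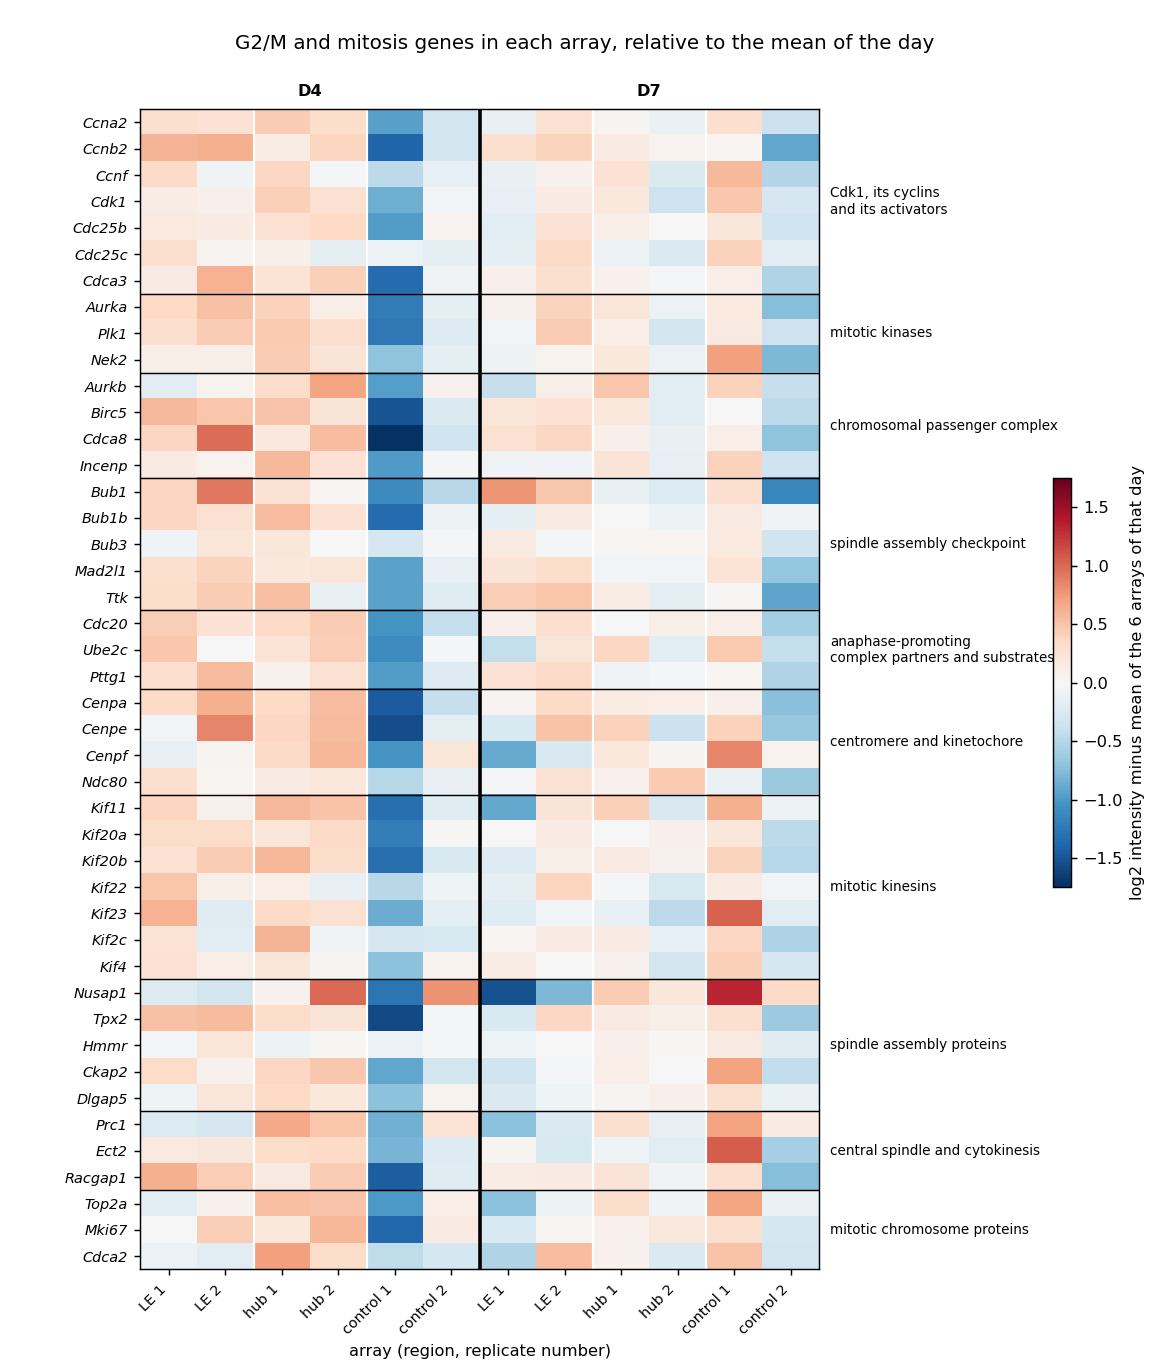
Log2 level of the 44 genes, in rows ordered by role, on the 12 arrays, in columns, as difference from the mean of the gene over the 6 arrays of the same day. Control replicate 1 at D4 is the lowest column for 43 genes, and at D7 all 4 wound arrays lie above both controls for 2 genes, Ccnb2 and Ndc80.

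Cyclin A2 and cyclin B2, the partners of Cdk1, were higher in the LE at D4. Ccna2 read 10.45 and 10.43 in the LE, 10.61 and 10.47 in the proliferative hub and 9.21 and 9.85 in the control. All wound arrays were above both controls, and the proliferative hub was above the LE without overlap. In the LE it differed from control by 0.91 (SE 0.25, BH-adjusted p = 0.0373) and in the proliferative hub by 1.01 (SE 0.25, BH-adjusted p = 0.149). Ccnb2 read 8.91 and 8.94 in the LE, 8.44 and 8.69 in the proliferative hub and 6.91 and 7.99 in the control. Every wound array exceeded both controls, and here the LE lay above the proliferative hub. Its difference was 1.48 (SE 0.34, BH-adjusted p = 0.0181) in the LE and 1.12 (SE 0.34, BH-adjusted p = 0.23) in the proliferative hub. The other 5 genes of the group did not pass: Cdk1 itself, the phosphatases Cdc25b and Cdc25c that activate it, cyclin F (Ccnf) and the mitotic entry factor Cdca3. The 7 genes ranged from 0.29 to 1.48 in the LE and from 0.09 to 1.12 in the proliferative hub.

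Of the mitotic kinases, Plk1, the polo-like kinase that drives entry into mitosis, passed in the LE. Plk1 read 9.29 and 9.45 in the LE, 9.47 and 9.30 in the proliferative hub and 7.75 and 8.77 in the control. Control replicate 1 was the lowest array, and all wound arrays lay above both controls. The difference was 1.11 (SE 0.32, BH-adjusted p = 0.0445) in the LE and 1.12 (SE 0.32, BH-adjusted p = 0.195) in the proliferative hub. Nek2, a kinase of centrosome separation, read 5.5 and 5.49 in the LE, 5.84 and 5.62 in the proliferative hub and 4.69 and 5.22 in the control. Its wound arrays lay above both controls too, with the LE below the proliferative hub, at differences of 0.54 (SE 0.38, BH-adjusted p = 0.458) and 0.78 (SE 0.38, BH-adjusted p = 0.522). Aurka, the spindle pole kinase, was at 1.12 (SE 0.35, BH-adjusted p = 0.0662) in the LE and at 0.95 (SE 0.35, BH-adjusted p = 0.336) in the proliferative hub.

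The chromosomal passenger complex corrects wrong attachments of chromosomes to the spindle and then guides cytokinesis. Of its 4 genes, survivin (Birc5) and borealin (Cdca8) passed in the LE. Birc5 read 9.81 and 9.74 in the LE, 9.75 and 9.47 in the proliferative hub and 7.73 and 8.99 in the control. Cdca8 read 9.59 and 10.20 in the LE, 9.40 and 9.75 in the proliferative hub and 7.49 and 8.87 in the control. In both genes the 4 wound arrays were above both controls and the LE and the proliferative hub overlapped. Birc5 differed from control by 1.41 (SE 0.33, BH-adjusted p = 0.0192) in the LE, and Cdca8 by 1.71 (SE 0.41, BH-adjusted p = 0.0205), the widest difference of the 44 genes there. In the proliferative hub the differences were 1.25 (SE 0.33, BH-adjusted p = 0.166) and 1.40 (SE 0.41, BH-adjusted p = 0.208). Incenp, the scaffold of the complex, read 8.64 and 8.56 in the LE, 9.07 and 8.76 in the proliferative hub and 7.51 and 8.47 in the control. Its wound arrays were above both controls, with the LE below the proliferative hub without overlap, and its differences were 0.61 (SE 0.31, BH-adjusted p = 0.264) and 0.92 (SE 0.31, BH-adjusted p = 0.272). The kinase of the complex, Aurkb, was at 0.38 (SE 0.38, BH-adjusted p = 0.633) and 0.96 (SE 0.38, BH-adjusted p = 0.369).

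The spindle assembly checkpoint holds cells in mitosis until each kinetochore is attached. Bub1, its kinase at the kinetochore, read 6.64 and 7.18 in the LE, 6.51 and 6.29 in the proliferative hub and 5.14 and 5.77 in the control. The LE lay above the proliferative hub and both above the controls. The difference was 1.45 (SE 0.39, BH-adjusted p = 0.0351) in the LE and 0.94 (SE 0.39, BH-adjusted p = 0.408) in the proliferative hub. Bub1b, which blocks Cdc20, read 7.63 and 7.52 in the LE, 7.79 and 7.51 in the proliferative hub and 5.91 and 7.16 in the control. With all 4 wound arrays above both controls, Bub1b passed in the average of both regions, at 1.08 (SE 0.27, BH-adjusted p = 0.0392), and not in the LE alone, at 1.04 (SE 0.32, BH-adjusted p = 0.0562). Ttk (Mps1), the kinase that starts the signal, read 8.30 and 8.44 in the LE, 8.52 and 7.86 in the proliferative hub and 7.06 and 7.77 in the control. Those arrays did not overlap with the controls either, at a difference of 0.95 (SE 0.33, BH-adjusted p = 0.0898) in the LE and 0.78 (SE 0.33, BH-adjusted p = 0.415) in the proliferative hub. Bub3, the adaptor that recruits Bub1, read 10.00 and 10.28 in the LE, 10.25 and 10.05 in the proliferative hub and 9.76 and 10.02 in the control. Here the LE overlapped with control, and the difference was 0.25 (SE 0.18, BH-adjusted p = 0.48). Mad2l1, the inhibitor of Cdc20, was at 0.88 (SE 0.29, BH-adjusted p = 0.078) in the LE and 0.74 (SE 0.29, BH-adjusted p = 0.367) in the proliferative hub.

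Of the partners and substrates of the anaphase-promoting complex, Cdc20 and securin passed in the LE. Cdc20, the activator that starts anaphase, read 10.42 and 10.25 in the LE, 10.33 and 10.43 in the proliferative hub and 8.94 and 9.58 in the control. The 4 wound arrays were above both controls, with the regions overlapping. It differed from control by 1.08 (SE 0.24, BH-adjusted p = 0.0158) in the LE and by 1.12 (SE 0.24, BH-adjusted p = 0.102) in the proliferative hub, and had the smallest adjusted p of the set in the average of both regions, 0.0117. Pttg1 (securin), which keeps separase inactive until anaphase, read 10.57 and 10.83 in the LE, 10.35 and 10.54 in the proliferative hub and 9.30 and 10.05 in the control. The LE was above the proliferative hub and the proliferative hub above the controls. The LE differed from control by 1.03 (SE 0.24, BH-adjusted p = 0.0189) and the proliferative hub by 0.77 (SE 0.24, BH-adjusted p = 0.237). Ube2c, the ubiquitin-conjugating enzyme of the complex, was at 0.80 (SE 0.39, BH-adjusted p = 0.247) and 0.90 (SE 0.39, BH-adjusted p = 0.436).

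Cenpa, the histone H3 variant that marks centromeres, read 9.46 and 9.74 in the LE, 9.47 and 9.65 in the proliferative hub and 7.66 and 8.71 in the control. All wound arrays lay above both controls. It was higher in the LE by 1.41 (SE 0.33, BH-adjusted p = 0.0185) and stood 1.37 (SE 0.33, BH-adjusted p = 0.14) above control in the proliferative hub. Cenpe, the kinetochore motor, was at 1.26 (SE 0.52, BH-adjusted p = 0.156) and 1.31 (SE 0.52, BH-adjusted p = 0.371), and Ndc80, which binds microtubules at the kinetochore, at 0.48 (SE 0.21, BH-adjusted p = 0.178) and 0.48 (SE 0.21, BH-adjusted p = 0.432). Cenpf, a large kinetochore and nuclear matrix protein, read 7.71 and 7.90 in the LE, 8.19 and 8.44 in the proliferative hub and 6.82 and 8.07 in the control. Unlike Cenpa, Cenpf overlapped with control in the LE and lay above control in the proliferative hub, at differences of 0.36 (SE 0.38, BH-adjusted p = 0.667) and 0.87 (SE 0.38, BH-adjusted p = 0.437).

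**Figure D3:**
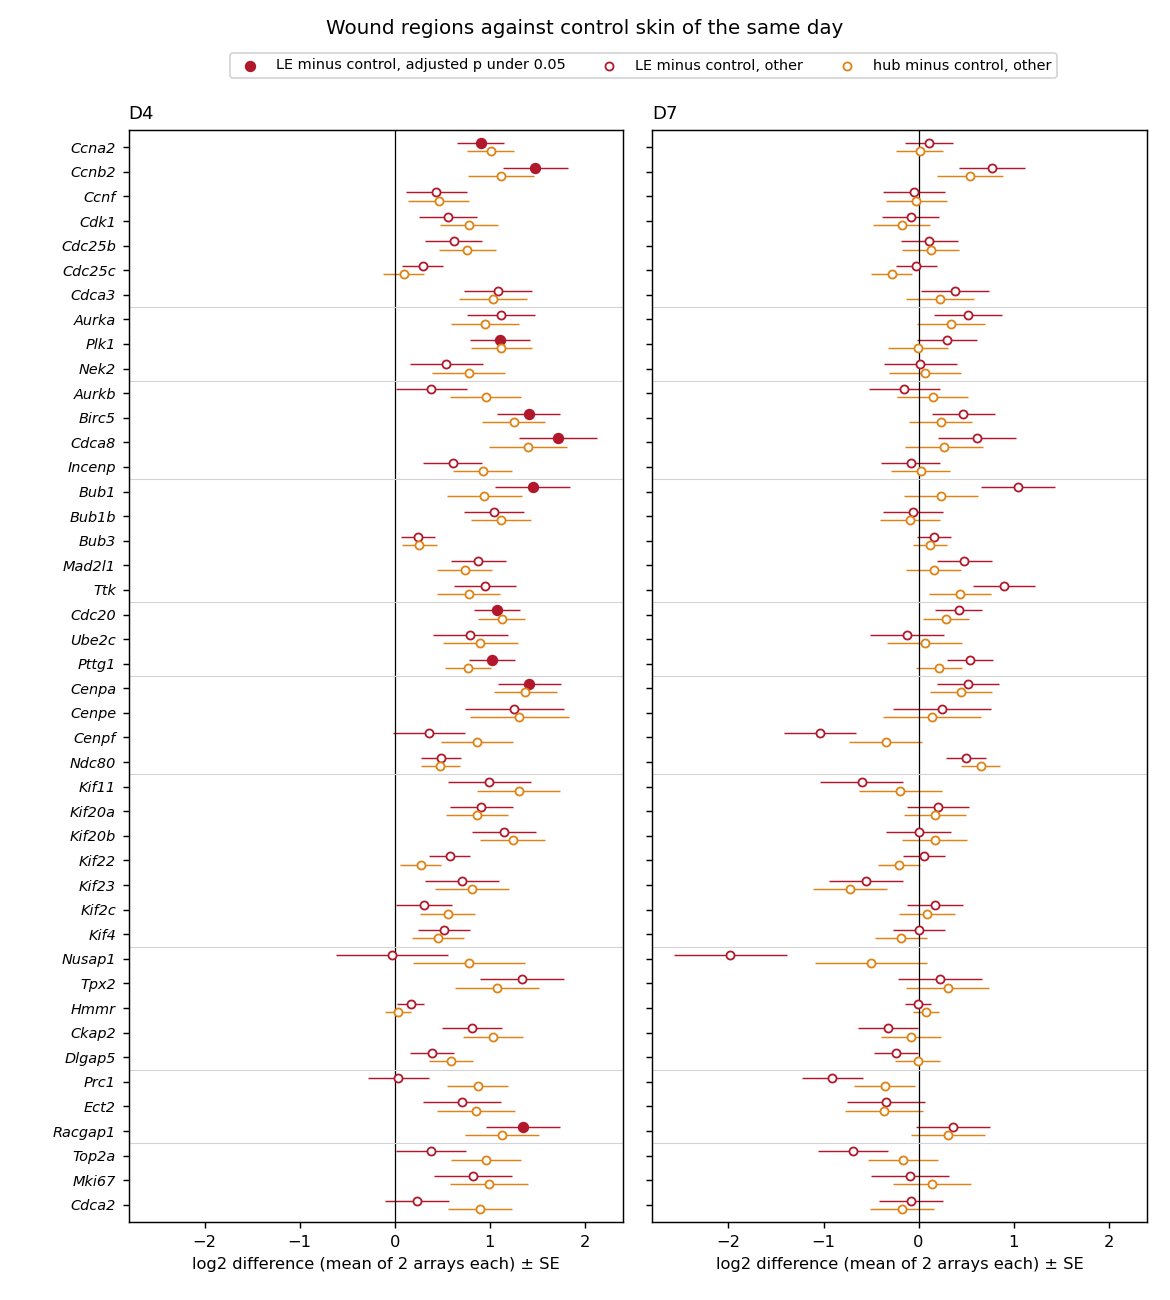
Log2 difference from control of each of the 44 genes at D4 and at D7, for the LE and the proliferative hub, with bars of 1 standard error from limma and filled circles for an adjusted p under 0.05. At D4 the points lie to the right of 0 in all cases but Nusap1 in the LE (-0.03), and at D7 they lie on either side of 0 around medians of 0.04 and 0.08.

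Mitotic kinesins move spindle poles, chromosomes and the midzone. In this group of 7, none passed in the LE and Kif20b, a kinesin of late cytokinesis, passed in the average of both regions. Kif20b read 7.10 and 7.29 in the LE, 7.42 and 7.16 in the proliferative hub and 5.52 and 6.57 in the control. The wound arrays lay above both controls, at an average difference of 1.2 (SE 0.30, BH-adjusted p = 0.0351). Kif20a, the kinesin that carries the passenger complex to the midzone, read 9.02 and 9.02 in the LE, 8.91 and 9.03 in the proliferative hub and 7.49 and 8.72 in the control. No wound array overlapped with control, at 0.91 (SE 0.33, BH-adjusted p = 0.104) in the LE and 0.86 (SE 0.33, BH-adjusted p = 0.35) in the proliferative hub. Kif23, the kinesin of the centralspindlin complex, read 7.40 and 6.58 in the LE, 7.13 and 7.06 in the proliferative hub and 5.92 and 6.64 in the control. In the LE it overlapped with the controls, at 0.71 (SE 0.39, BH-adjusted p = 0.305). The 7 kinesins, which also held Kif11, Kif2c, Kif22 and Kif4, ranged from 0.31 to 1.15 in the LE and from 0.27 to 1.30 in the proliferative hub.

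None of the 5 spindle assembly proteins passed. Tpx2, the activator of Aurora A at the spindle, read 8.68 and 8.72 in the LE, 8.48 and 8.39 in the proliferative hub and 6.58 and 8.14 in the control. All wound arrays were above both controls and the LE was above the proliferative hub, at 1.34 (SE 0.44, BH-adjusted p = 0.0767) and 1.08 (SE 0.44, BH-adjusted p = 0.401) from control. Nusap1, which bundles microtubules near chromosomes, read 6.13 and 6.05 in the LE, 6.44 and 7.36 in the proliferative hub and 5.09 and 7.15 in the control. The control arrays lay on both sides of every wound array but 1, and the difference was -0.03 (SE 0.59, BH-adjusted p = 0.986) in the LE and 0.78 (SE 0.59, BH-adjusted p = 0.775) in the proliferative hub. Ckap2, Dlgap5 and Hmmr, which stabilise or focus spindle microtubules, lay at 0.82, 0.39 and 0.17 in the LE and at 1.03, 0.59 and 0.03 in the proliferative hub.

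In the central spindle, Racgap1, the GTPase-activating subunit of centralspindlin, passed in the LE and Prc1 did not. Racgap1 read 9.40 and 9.21 in the LE, 8.94 and 9.22 in the proliferative hub and 7.34 and 8.56 in the control. The 4 wound arrays were above both controls, and the difference was 1.35 (SE 0.39, BH-adjusted p = 0.0446) in the LE and 1.13 (SE 0.39, BH-adjusted p = 0.285) in the proliferative hub. Prc1, which bundles the antiparallel microtubules of the midzone, read 8.79 and 8.74 in the LE, 9.69 and 9.51 in the proliferative hub and 8.19 and 9.26 in the control. The LE overlapped with control and the proliferative hub lay above both, at differences of 0.04 (SE 0.32, BH-adjusted p = 0.972) and 0.87 (SE 0.32, BH-adjusted p = 0.331). Ect2, the exchange factor that starts the contractile ring, was at 0.70 (SE 0.41, BH-adjusted p = 0.34) and 0.85 (SE 0.41, BH-adjusted p = 0.507).

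None of the 3 mitotic chromosome proteins passed. Mki67, the surface coat of mitotic chromosomes and a common marker of proliferation, read 9.80 and 10.23 in the LE, 9.99 and 10.38 in the proliferative hub and 8.43 and 9.96 in the control. Top2a, the topoisomerase that untangles sister chromatids, read 7.71 and 7.99 in the LE, 8.44 and 8.42 in the proliferative hub and 6.92 and 8.03 in the control. In both genes the LE overlapped with control while the proliferative hub lay above it. Differences in the LE were 0.82 (SE 0.41, BH-adjusted p = 0.252) for Mki67 and 0.38 (SE 0.37, BH-adjusted p = 0.629) for Top2a, and in the proliferative hub 0.99 (SE 0.41, BH-adjusted p = 0.407) and 0.96 (SE 0.37, BH-adjusted p = 0.356). Cdca2, which targets a phosphatase to chromosomes, was at 0.24 (SE 0.34, BH-adjusted p = 0.773) and 0.90 (SE 0.34, BH-adjusted p = 0.342).

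At D7 the differences from control lay around 0. Their median was 0.04 in the LE and 0.08 in the proliferative hub. In the LE 0 genes passed as higher (9.25% of all genes) and 0 as lower (5.37%), while 5 higher and 3 lower genes had an unadjusted p below 0.05 (16.5% and 10.7%). In the proliferative hub 0 passed as higher (0.591%) or lower (0.17%), with 1 higher and 0 lower genes below an unadjusted p of 0.05 (8.28% and 4.38%). All 4 wound arrays were above both controls for 2 genes, Ccnb2 and Ndc80 (18.2%). Both LE arrays lay above both controls for 7 genes (15.9%, against 31.5% of all genes) and below them for 3 (6.82%, against 23.5%). Both proliferative hub arrays lay above for 3 (6.82%, against 25.8%) and below for 0 (18.1%). These shares were under those over all genes, so the separations of single genes given below are not particular to the set. By the 2-fold rule, 1 gene, Nusap1, was lower in the LE (1.51%). The sign of the median depended on the control array. Against control replicate 1 the LE had a median of -0.25 and the proliferative hub of -0.29, and against control replicate 2 they had 0.45 and 0.48. Without control replicate 1 at D7, Bub1 and Ttk passed as higher in the LE, and without replicate 2, Ect2 passed as lower.

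Of the cyclins, Ccna2 at D7 read 9.47 and 9.86 in the LE, 9.65 and 9.48 in the proliferative hub and 9.90 and 9.22 in the control. Ccnb2 at D7 read 7.95 and 8.07 in the LE, 7.81 and 7.73 in the proliferative hub and 7.71 and 6.76 in the control. Ccna2 overlapped with control in both regions, whereas Ccnb2 was above both controls on every wound array, with a difference of 0.77 (SE 0.34, BH-adjusted p = 0.18) in the LE. Plk1 at D7 read 8.06 and 8.56 in the LE, 8.23 and 7.78 in the proliferative hub and 8.27 and 7.75 in the control, and Nek2 at D7 read 5.06 and 5.21 in the LE, 5.34 and 5.04 in the proliferative hub and 5.87 and 4.37 in the control. Neither kinase separated a wound region from control.

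In the passenger complex, Birc5 at D7 read 8.63 and 8.67 in the LE, 8.60 and 8.23 in the proliferative hub and 8.41 and 7.95 in the control. Cdca8 at D7 read 8.78 and 8.88 in the LE, 8.60 and 8.38 in the proliferative hub and 8.63 and 7.81 in the control. Both were above control and above the proliferative hub in the LE without overlap, at differences from control of 0.47 (SE 0.33, BH-adjusted p = 0.434) and 0.61 (SE 0.41, BH-adjusted p = 0.401). Incenp at D7 read 7.53 and 7.54 in the LE, 7.82 and 7.45 in the proliferative hub and 7.99 and 7.23 in the control, with overlap in both regions.

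The checkpoint kinases Bub1 and Ttk had the same order. Bub1 at D7 read 5.89 and 5.59 in the LE, 4.99 and 4.88 in the proliferative hub and 5.41 and 3.98 in the control. Ttk at D7 read 7.45 and 7.51 in the LE, 7.16 and 6.88 in the proliferative hub and 7.05 and 6.11 in the control. In both, the LE lay above the proliferative hub and above control, and the proliferative hub overlapped with control. The difference in the LE was 1.05 (SE 0.39, BH-adjusted p = 0.112) for Bub1 and 0.90 (SE 0.33, BH-adjusted p = 0.102) for Ttk. Bub1b at D7 read 6.71 and 7.04 in the LE, 6.88 and 6.80 in the proliferative hub and 7.04 and 6.82 in the control, and Bub3 at D7 read 9.25 and 9.07 in the LE, 9.11 and 9.12 in the proliferative hub and 9.26 and 8.74 in the control. These 2 checkpoint genes overlapped with control in both regions.

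Pttg1 at D7 read 9.87 and 9.96 in the LE, 9.57 and 9.61 in the proliferative hub and 9.66 and 9.10 in the control. Cdc20 at D7 read 9.48 and 9.68 in the LE, 9.39 and 9.5 in the proliferative hub and 9.52 and 8.80 in the control. Securin was above control in the LE without overlap, at 0.54 (SE 0.24, BH-adjusted p = 0.18), and Cdc20 overlapped. Cenpa at D7 read 8.60 and 8.89 in the LE, 8.67 and 8.66 in the proliferative hub and 8.63 and 7.81 in the control, and only its proliferative hub arrays stood clear of both controls. Kif20a at D7 read 7.91 and 8.04 in the LE, 7.90 and 8.0 in the proliferative hub and 8.10 and 7.45 in the control. Kif20b at D7 read 6.40 and 6.74 in the LE, 6.78 and 6.70 in the proliferative hub and 7.02 and 6.12 in the control. The kinesins showed no separation from control, and neither did Kif23, which read 5.18 and 5.35 in the LE, 5.26 and 4.93 in the proliferative hub and 6.43 and 5.21 in the control.

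The 3 genes furthest below control in the LE at D7 were Nusap1, Cenpf and Prc1, of which Nusap1 and Cenpf are described after their values were seen. Nusap1 at D7 read 4.19 and 4.92 in the LE, 6.16 and 5.91 in the proliferative hub and 7.04 and 6.04 in the control. Its LE values lay on either side of the array medians of D7, 4.25 to 4.28, so its signal there was low. Cenpf at D7 read 7.06 and 7.66 in the LE, 8.11 and 7.98 in the proliferative hub and 8.79 and 7.99 in the control. Prc1 at D7 read 7.67 and 8.13 in the LE, 8.67 and 8.25 in the proliferative hub and 9.09 and 8.53 in the control. In all 3, both LE arrays were the lowest of the day, below the proliferative hub and below both controls. Only these 3 of the 44 had both LE arrays below both controls (6.82%, against 23.5% of all genes). The differences from control were -1.98 (SE 0.59, BH-adjusted p = 0.0515), -1.03 (SE 0.38, BH-adjusted p = 0.105) and -0.91 (SE 0.32, BH-adjusted p = 0.0945), none of which passed. They passed when either control array of D4, which enters only through the shared estimate of the spread, was left out.

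Tpx2 at D7 read 6.89 and 7.51 in the LE, 7.30 and 7.26 in the proliferative hub and 7.43 and 6.52 in the control. Racgap1 at D7 read 8.34 and 8.37 in the LE, 8.45 and 8.16 in the proliferative hub and 8.52 and 7.47 in the control. Both overlapped with control in both regions. Mki67 at D7 read 9.05 and 9.35 in the LE, 9.39 and 9.5 in the proliferative hub and 9.59 and 9.0 in the control. Top2a at D7 read 5.85 and 6.48 in the LE, 6.88 and 6.51 in the proliferative hub and 7.26 and 6.45 in the control. In these 2 chromosome genes the LE lay below the proliferative hub and overlapped with control.

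Whether the difference from control changed between the days was tested directly. The difference at D4 minus that at D7 had a median of 0.70 in the LE, 0.83 in the proliferative hub and 0.77 in their average. Single genes did not pass: 0 of the 44 in the LE (0.0234% of all genes), 0 in the proliferative hub (0%) and 0 in the average (0%). With an unadjusted p below 0.05 the difference was higher at D4 for 8 genes in the LE (3.84%), 11 in the proliferative hub (2.08%) and 14 in the average (3.22%). This change combines the control arrays of both days, which differed most among themselves.

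The difference between the LE and the proliferative hub, into which no control array enters, had medians near 0 in these genes. Its median was -0.05 at D4, 0.05 at D7 and 0.01 averaged over the days. At D4 both LE arrays lay below both proliferative hub arrays for 14 genes (31.8%, against 18.5% of all genes), Cdk1, Ccna2, Aurkb and Top2a among them. They lay above for 5 (11.4%, against 25.2%). At D7 they lay below for 8 genes (18.2%, against 21.5%) and above for 8 (18.2%, against 25.7%). At D4 0 genes passed as higher (2.61%) or lower (2.15%), with 0 and 1 below an unadjusted p of 0.05 (8.86% and 7.46%). At D7 0 passed as higher (1.33%) or lower (1.4%), with 0 and 1 unadjusted (8.48% and 7.3%). Averaged over the days, a comparison added after the values were seen, 0 passed as higher (5.26%) or lower (4.83%), with 1 and 2 unadjusted (12.3% and 10.1%). The 95% interval of the difference lay within a 2-fold change for 27 of 44 genes at D4, for 29 at D7 and for 37 in the average, so for the others a difference of 2-fold or more was within the error.

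Within the set, single genes leaned one way at both days. The LE arrays were above the proliferative hub arrays at D4 and at D7 for 4 genes (11.3% of all genes), namely Ccnb2, Bub1, Mad2l1 and Pttg1, which are a cyclin, 2 checkpoint genes and securin. They were below at both days for 5 genes (9.1%), namely Cenpf, Nusap1, Ckap2, Prc1 and Top2a. Both counts were near or below the share over all genes. Across the 44 genes the difference at D4 and that at D7 had a Pearson correlation of 0.78 and a Spearman correlation of 0.74, against 0.69 and 0.48 over all genes, and the sign was the same in 30 of 44 (68.2%), against 63.8%. The 2 days share no array, but genes are not independent replicates.

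**Figure D4:**
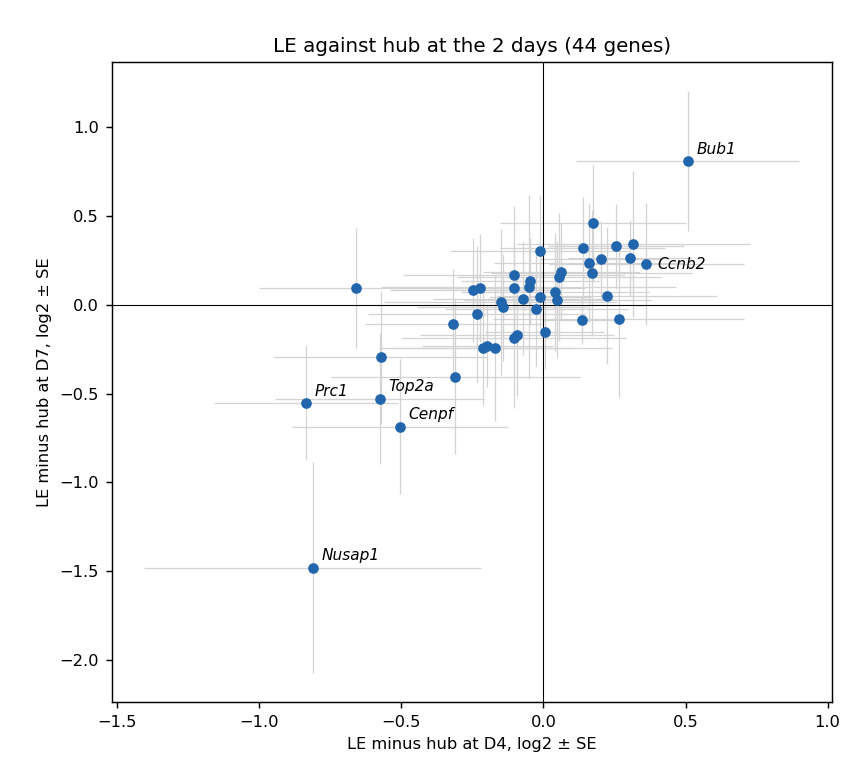
Log2 difference of the LE from the proliferative hub at D4 (horizontal) and at D7 (vertical), with 1 dot for each of the 44 genes, bars of 1 standard error and lines at 0. Nusap1 lies furthest to the lower left, at -0.81 and -1.48, and Bub1 and Ccnb2 lie to the upper right.

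Averaged over the days, Prc1 was at -0.69 (95% interval -1.2 to -0.18, unadjusted p = 0.0128, adjusted p = 0.0929 in limma) in LE minus proliferative hub. Nusap1 was at -1.15 (95% interval -2.08 to -0.21, adjusted p = 0.131) and Bub1 at 0.66 (95% interval 0.04 to 1.28, adjusted p = 0.193). Of the 44, these 3 had an unadjusted p below 0.05. Cenpf was at -0.60 (SE 0.27, BH-adjusted p = 0.228) and Top2a at -0.55 (SE 0.26, BH-adjusted p = 0.251).

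Some genes had further probe sets, and these can be compared within themselves. For the 26 genes with more than 1 probe set, 38 other sets were on the array, and in the average of both regions against control at D4, 31 had the sign of the set used and 7 the other sign. The 7 belonged to Bub3, Incenp, Kif23, Nek2, Top2a and Ttk, and their mean levels were 3.56 to 4.52. For Incenp the other sets stood at 0.69 and -0.09, against 0.77 for the set used. For Kif23 the other set stood at -0.25, against 0.76, and for Ttk at -0.09, against 0.86. For Bub3 the 3 other sets ranged from -0.17 to 0.11, for Nek2 from -0.06 to 0.36, and for Top2a the 2 others were at -0.06 and -0.01. Pttg1 had 2 others, at 1.13 and -0.21 in the LE at D4. Hmmr, at 0.17 there by the set used, was at 0.86 and 0.73 by 2 of its 4 others. Agreement was lower elsewhere. For the LE against the proliferative hub, 19 of the 38 other sets had the other sign at D4, 14 at D7 and 15 averaged over the days. For the LE against control at D7, 17 did. Of the genes named above for both days, Pttg1, Nusap1 and Top2a had such a set at both days. Bub1 had one at D7, with a mean level of 3.47. The other set of Prc1 gave the same order of LE and proliferative hub, with LE minus proliferative hub at -0.96 at D4 and -0.41 at D7, and that of Nusap1 did not, at 0.11 and 0.01.

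Outside the set, 2 regulators passed between the LE and the proliferative hub at both days, Wee1 and E2f7. They came from lists of 6 and 15 genes. Over all genes, 2.61% passed there as higher and 2.15% as lower at D4, and 1.33% and 1.4% at D7. Wee1, the kinase that holds Cdk1 inactive, was lower in the LE at both days. Wee1 at D4 read 7.78 and 7.77 in the LE, 8.96 and 9.07 in the proliferative hub and 9.40 and 9.28 in the control. Wee1 at D7 read 6.92 and 6.96 in the LE, 7.78 and 7.89 in the proliferative hub and 8.78 and 8.72 in the control. At both days every LE array was below every proliferative hub array and every proliferative hub array below every control array. The LE differed from control by -1.56 (SE 0.10, BH-adjusted p = 2.09e-05) at D4 and -1.81 (SE 0.10, BH-adjusted p = 1.77e-05) at D7, and from the proliferative hub by -1.24 (SE 0.10, BH-adjusted p = 0.000207) and -0.89 (SE 0.10, BH-adjusted p = 0.00311). The proliferative hub differed from control by -0.92 (SE 0.10, BH-adjusted p = 0.00539) at D7 and by -0.32 (SE 0.10, BH-adjusted p = 0.228) at D4. The calls of Wee1 in the LE against control were kept in each of the 12 fits that left out 1 array, and that of the proliferative hub at D7 in 11 of 12.

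E2f7 and E2f8, the atypical E2F repressors of cell cycle genes, were higher in the LE at both days. E2f7 read 7.38 and 7.66 in the LE, 5.79 and 5.32 in the proliferative hub and 4.59 and 4.65 in the control at D4. At D7 E2f7 read 5.41 and 5.59 in the LE, 4.47 and 3.77 in the proliferative hub and 3.61 and 3.30 in the control. The LE lay above the proliferative hub and above control at both days without overlap. The LE differed from control by 2.90 (SE 0.23, BH-adjusted p = 6.64e-05) at D4 and 2.05 (SE 0.23, BH-adjusted p = 0.000566) at D7, and from the proliferative hub by 1.96 (SE 0.23, BH-adjusted p = 0.00164) and 1.38 (SE 0.23, BH-adjusted p = 0.0178). For E2f8 the difference from control was 1.5 (SE 0.22, BH-adjusted p = 0.00186) and 1.33 (SE 0.22, BH-adjusted p = 0.00398). The calls of E2f7 and E2f8 in the LE against control were kept in 12 of 12 fits that left out 1 array, and that of E2f7 against the proliferative hub in 12 at D4 and 9 at D7. Among 15 transcription factors and MuvB subunits of the programme, E2f7 and E2f8 were the 2 that passed as higher in the LE at each day (8.3% of all genes at D4 and 9.25% at D7), with 0 lower (5.83% and 5.37%), a count near that over all genes. Foxm1, the forkhead factor of G2/M genes, was at 0.27 (SE 0.28, BH-adjusted p = 0.661) at D4 and -0.22 (SE 0.28, BH-adjusted p = 0.708) at D7.

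**Figure D5:**
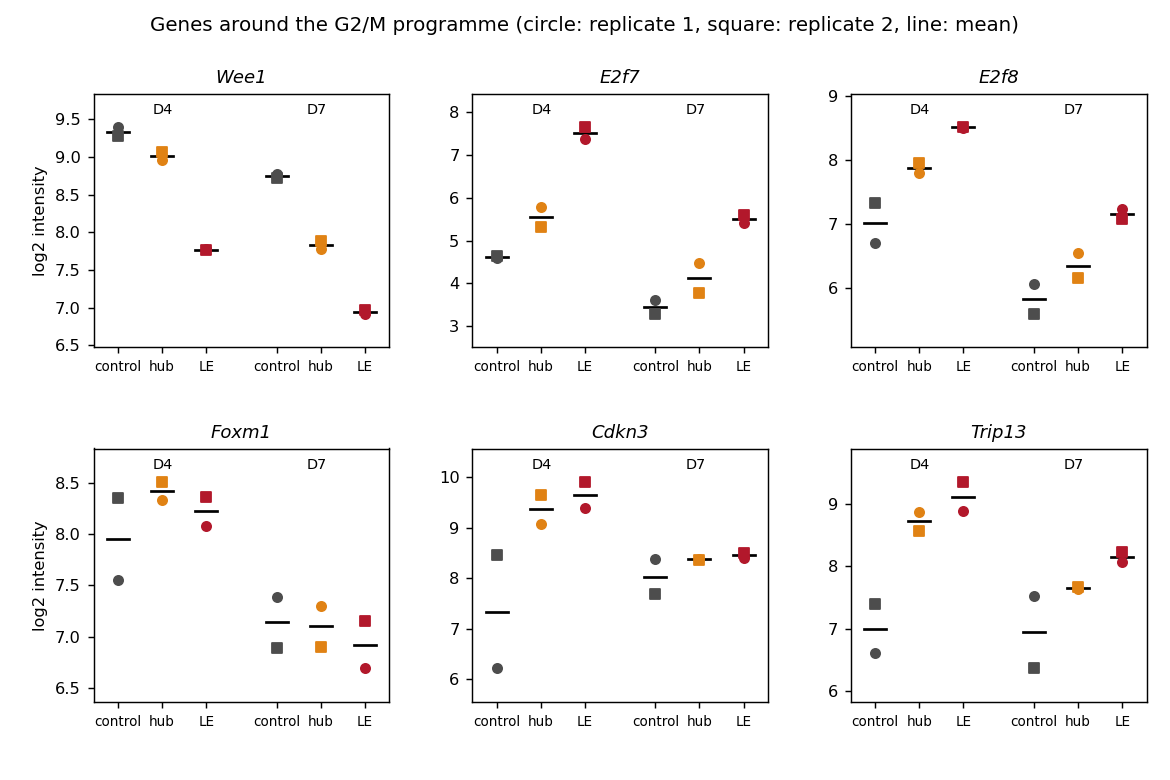
Log2 level on each array of Wee1, E2f7, E2f8, Foxm1, Cdkn3 and Trip13, 1 panel per gene, with a circle for replicate 1, a square for replicate 2 and a line for their mean. D4 and D7 arrays lie on different scales. Within a day the LE holds the lowest values of Wee1 and the highest of E2f7.

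Genes of mitosis outside the set were read in the same way. Among 63 of them, 14 passed as higher in the LE at D4 (8.3% of all genes) and 0 as lower (5.83%), with a median of 0.40. At D7 5 were higher, a share below the 9.25% over all genes, and 0 lower (5.37%), with a median of -0.01. Without control replicate 1 at D4, 6 were higher and 1 lower, and without replicate 2, 17 were higher. At D7 the counts were 8 higher without control replicate 1 and 1 without replicate 2. The widest differences in the LE at D4 were those of Cdkn3, a phosphatase of Cdk proteins, at 2.31 (SE 0.57, BH-adjusted p = 0.0227), Trip13, the ATPase that disassembles checkpoint complexes, at 2.11 (SE 0.35, BH-adjusted p = 0.00349), and Cenpn, a centromere protein, at 1.37 (SE 0.27, BH-adjusted p = 0.0092). The difference of Cdkn3 ran from 1.19 to 3.43 when 1 array was left out and passed in 10 of 12 such fits, and its D4 control arrays read 6.22 and 8.46. That of Trip13 passed in 12 of 12. At D7 Trip13 was at 1.2 (SE 0.35, BH-adjusted p = 0.0479) in the LE and passed in 3 of 12 fits, with differences from 0.63 to 1.78.

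Larger complexes of mitosis were counted against the same shares over all genes, 8.3% higher at D4 and 9.25% at D7. Of 14 subunits of the anaphase-promoting complex, 3 passed as higher in the LE at D4, namely Anapc4 at 0.83 (SE 0.14, BH-adjusted p = 0.00381), Anapc15 at 0.49 (SE 0.13, BH-adjusted p = 0.0348) and Anapc11 at 0.41 (SE 0.12, BH-adjusted p = 0.0485), and 1 did so without control replicate 1 as without replicate 2. At D7 1 passed, Anapc15, which helps turn over the checkpoint complex, at 1.03 (SE 0.13, BH-adjusted p = 0.00106). Of 12 condensin and cohesin subunits, 3 passed at D4, namely Smc2 and Ncapg of condensin, at 1.06 (SE 0.30, BH-adjusted p = 0.0431) and 0.90 (SE 0.19, BH-adjusted p = 0.0115), and Rad21 of cohesin, at 0.56 (SE 0.15, BH-adjusted p = 0.0372). Without control replicate 1, 0 of the 12 passed and without replicate 2, 4 did, and at D7 0 passed in the full data. Of 6 genes of the Cdk1 inhibitory kinases and the Greatwall pathway, Wee1 passed as lower at both days and Arpp19, a phosphatase inhibitor, as higher in the LE at D7, at 0.39 (SE 0.11, BH-adjusted p = 0.0451). With either control array of D7 left out, Arpp19 did not pass.

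Genes of DNA replication and the G1/S transition, which act earlier in the cycle, split less between the control arrays, and at D4 in the other direction. Over 37 of them, control replicate 1 minus replicate 2 had a median of 0.19 at D4 and 0.24 at D7, where the mitotic genes had -0.99 and 0.80. At D7, 31 of the 37 were higher in replicate 1, as were the mitotic genes. In the LE 10 passed as higher at D4 (8.3% of all genes) and 14 at D7 (9.25%), with 0 lower (5.83% and 5.37%) and medians of 0.41 and 0.46. In the proliferative hub 1 passed at each day (0.222% and 0.591%), Rrm2, a subunit of ribonucleotide reductase, with list medians of 0.49 and 0.29. Rrm2 differed from control by 1.18 (SE 0.14, BH-adjusted p = 0.0158) at D4 and 0.78 (SE 0.14, BH-adjusted p = 0.0457) at D7 there. The median in the LE was 0.37 and 0.43 against the 2 control arrays of D4 and 0.35 and 0.58 against those of D7, so it stayed above 0 against each. The counts in the LE still depended on the control: without replicate 1 and replicate 2 they were 8 and 1 at D4, and 11 and 5 at D7. In the proliferative hub they were 1 and 0 at D4, and 0 and 0 at D7.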

How the data were processed

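Basal cells of 12 samples were measured on the Affymetrix mouse genome PM strip array after whole-transcriptome amplification. Whether the 12 samples came from separate pools of mice was not clear from the sources used here. Per the labels and the study's methods, the authors processed the scans with robust multi-array averaging (RMA, version not given in the sources used here), and the values they deposited are intensities on the log2 scale. Among 45141 probe sets, 104 were controls, 28898 matched 1 gene, 551 several and 15588 none. Gene symbols were those of the platform annotation, and the probe set with the highest mean represented each of 17097 genes. The number of arrays, 2 per group, limits the precision.

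The log2 values were fitted in limma 3.58.1 (R 4.3.3; lmFit and eBayes), with all 12 arrays and 6 groups, 6 residual degrees of freedom and Benjamini-Hochberg adjustment over all genes at 0.05. The methods name no test but a difference of over 2-fold in each replicate, which was counted too. The scripts were tested on simulated data.

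The members and lists were chosen with earlier results of these data known. Values on every array are given for genes called in any region comparison, for the gene of each role with the highest mean, and for genes whose other probe sets differ in sign. Of other lists, up to 3 called genes with the widest change are named. Besides the mitosis lists, 37 DNA replication genes and lists of basal and suprabasal keratinocytes, infundibulum, bulge, T cells, myeloid cells, fibroblasts, endothelium, melanocytes and sebocytes were read. Suprabasal, T cell and fibroblast lists had means of 7.97 to 9.21, 4.64 to 5.88 and 4.00 to 5.17 on the control arrays, and that of the bulge 5.15 to 6.04.

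Alternatives covered the centring or quantile normalization of arrays, probe set choice, a filter on dim genes, array weights, the prior, the arrays fitted, a replicate block and leaving out each array. Promoters came from RefSeq, and a start that RefSeq gives may not be the one used in these cells.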

Additional observations from a re-analysis of the deposited data

How the results depend on the processing

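Across 47 results and 836 values under an alternative, 775 stayed within the limits set for a change and 61 moved. For a median the limit was the standard deviation between the 2 replicate numbers, which the split of the control arrays enters. The LE median at D4 thus counted as unmoved from 0.36 to 1.18, and so did that at D7, which changed sign. Counts of 0 that stayed 0 were also unmoved, so the tally does not measure robustness. For gene counts, shares over all genes were not taken under the alternatives. No count of called genes that was above 0 turned to the other direction. The 10 genes higher in the LE at D4 were 6 with array weights, 2 with the arrays of that day only, 0 with the arrays of the groups compared only and 0 when a change of at least 2-fold was tested. Leaving out 1 array gave 0 to 22 genes, with the lowest without control replicate 1 and the highest without control replicate 2 of D4, and 2 and 1 without LE replicate 1 and 2. The 11 genes of the averaged regions at D4 were 1 with the arrays of that day, 0 against 2-fold, and 0 to 22 when 1 array was left out. For the proliferative hub at D4 that range was 0 to 6, the highest without control replicate 2.

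Lower calls in the LE at D7, 0 in the full fit, were 1 with every probe set, 1 with genes over the median level, 1 with array weights, 3 with the arrays of that day and 1 with the groups compared only. They ranged from 0 to 3 and the higher calls from 0 to 2 when 1 array was left out, and the averaged regions at D7 gave 0 to 1 in each direction, and 1 lower with every probe set or that day's arrays. The medians of D7, near 0, changed sign with the control array left out, from -0.25 to 0.45 in the LE and from -0.29 to 0.48 in the proliferative hub. LE against proliferative hub at D7 gave 1 higher and 1 lower with the groups compared only, and averaged over the days 0 to 1 higher and 0 to 2 lower without 1 array. The change between days in the LE gave 0 to 1.

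Taken on group means, the 2-fold rule gave 15 higher genes in the LE and 15 in the proliferative hub at D4, and 1 higher and 2 lower in the LE at D7. With every wound array against every control array it gave 0 in the LE at D4. With 1 replicate it gave 4 to 27 higher and 0 to 1 lower in the LE and 0 to 36 higher in the proliferative hub at D4, and 0 to 7 higher and 1 to 9 lower in the LE and 0 to 1 higher and 0 to 2 lower in the proliferative hub at D7. With a window of 100 bases, 10 promoters held both motifs, and with all 300 bases, added after seeing the data, 26 held both and 30 the TTTGAA or TTTAAA letters.

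With the replicate number within a day as a block, 9 genes passed in the LE at D4, with Ccna2 and Plk1 lost and Cdca3 gained, 12 in the averaged regions, with Bub1b lost and Bub1 and Cdca3 gained, and 1, Nusap1, as lower in the LE at D7. Deviations of arrays with the same number had correlations of 0.17 to 0.24 between groups at D4 and 0.00 to 0.07 at D7, and neither the labels nor the methods tie a number to shared animals or a shared day, so with 2 numbers the samples were not taken as paired. With 2 arrays per group, differences of single genes of the set under about 1 on the log2 scale seldom passed after adjustment. Their unadjusted 95% intervals could still exclude 0, as they did for 33 of 44 genes in the proliferative hub against control at D4. No depth applies to array signals.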
